A study of Mus musculus with 6 samples.

Results

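The genes encoding the 3 TGF-beta ligands, their 3 receptors and the 4 latent TGF-beta binding proteins were compared between TG and NTG left ventricles after aortic banding (AB). The 10 genes (Tgfb1, Tgfb2, Tgfb3, Tgfbr1, Tgfbr2, Tgfbr3, Ltbp1, Ltbp2, Ltbp3 and Ltbp4) were taken by gene name from a count table of 54532 genes, and all 10 were among the 14774 genes with enough counts to be tested. None of the 10 passed the edgeR test after adjustment over all genes, as no gene of the table did. Tgfb2, Tgfb3, Tgfbr1, Ltbp2 and Ltbp3 were each lower in every TG library than in every NTG library, with NTG means 1.61 to 5.83 times the TG means in the edgeR fit, a lack of overlap seen in 12.3% of all genes tested. DESeq2 on the same counts called these 5 lower, against 2.40% of all genes. When 1 library was left out it called 0 to 6 of the 10, in fits that called 0.638% to 11.7% of all genes in either direction. Tgfb1, Tgfbr3, Ltbp1 and Ltbp4 had fitted differences of no more than 0.16 in size on the log2 scale and overlapped between the groups.

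TGF-beta is made as a precursor whose propeptide stays wrapped around the cleaved cytokine and keeps it inactive. Latent TGF-beta binding proteins tether this complex to the extracellular matrix, from which integrins and other factors release the ligand. The free ligand brings the type II receptor together with the type I receptor, which phosphorylates SMAD2 and SMAD3. In the heart the pathway is known for turning fibroblasts into matrix-producing myofibroblasts after injury or pressure overload.

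AB narrows the aorta and loads the left ventricle with pressure. All 6 mice were males of 8 to 10 weeks at surgery, all were banded, and left ventricular RNA was taken 4 weeks later from 1 heart per library. The TG group (genotype label HINT2CTG-Myh6Cre, n = 3) carried a human HINT2 transgene switched on in cardiomyocytes by a tamoxifen-induced Cre under the Myh6 promoter. The NTG group (genotype label C57BL/6J, n = 3) lacked the transgene. HINT2 is a nucleotide-binding protein of mitochondria. Whether the NTG mice carried Cre or received tamoxifen was not given in the sources used here, so the transgene, Cre and tamoxifen cannot be told apart. Sham-operated hearts were not analysed here, so the values describe banded hearts alone.

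Gene totals were 14863568 to 17581220 counts in NTG and 14944465 to 17235802 in TG. Reads assigned to the mouse Hint2 gene numbered 793 to 859 in TG, 545 in NTG 2 and 559 in NTG 3, but 12 in NTG 1. The low count in NTG 1 goes against the label of an animal with its own Hint2 gene, and the fits of the 10 genes, the shares tested and the counts of the pathway lists are therefore also given without the library labelled NTG 1. It was also the NTG library nearest to TG along the main axis of variation between libraries (52.3% of the variance), at -5.08 against 29.3 and 55.7 in the other NTG libraries and -36.5 to -10.7 in TG. Defining markers of ventricular cardiomyocytes were present in every library, with summed levels of 14250 to 24120 CPM in NTG and 23170 to 29090 in TG. CPM denotes counts relative to the library total, scaled by TMM.

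The ligands differed in how far TG and NTG stood apart. Tgfb1 (ENSMUSG00000002603, chromosome 7, 25687002 to 25705077, plus strand, GRCm38), the ligand isoform most studied in fibrosis, stood at 102.9, 92.5 and 94.3 CPM in NTG 1 to 3 and at 91.1, 117.1 and 77.5 CPM in TG 1 to 3. The highest and the lowest of the 6 values were both TG libraries. Means were 96.6 ± 5.58 CPM in NTG and 95.2 ± 20.1 CPM in TG (SD, n = 3 each), a log2 fold change of -0.02 (SE 0.15, edgeR adjusted p = 0.958).

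Tgfb2 (ENSMUSG00000039239, chromosome 1, 186622792 to 186705989, minus strand), the isoform that needs the co-receptor betaglycan for strong receptor binding, was measured at 41.7, 62.5 and 61.7 CPM in NTG and at 21.4, 36.1 and 19.3 CPM in TG. All TG values lay below all NTG values, and TG 2 came closest to NTG 1. The means of 55.3 ± 11.8 and 25.6 ± 9.16 CPM (SD, n = 3) gave a log2 fold change of -1.11 (SE 0.27), the NTG level being 2.16 times that of TG. The edgeR quasi-likelihood p was 0.0045 before adjustment and 0.196 after it, whereas the DESeq2 adjusted p was 0.0044. Tgfb3 (ENSMUSG00000021253, chromosome 12, 86056745 to 86079041, minus strand), the isoform known from closure of the palate, was at 60.3, 73.1 and 64.0 CPM in NTG and at 38.8, 52.2 and 31.8 CPM in TG. The groups were again apart, with TG 2 the highest TG library and NTG 1 the lowest NTG library. Its log2 fold change was -0.68 (SE 0.18, edgeR adjusted p = 0.196, DESeq2 adjusted p = 0.028).

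**Figure D1:**
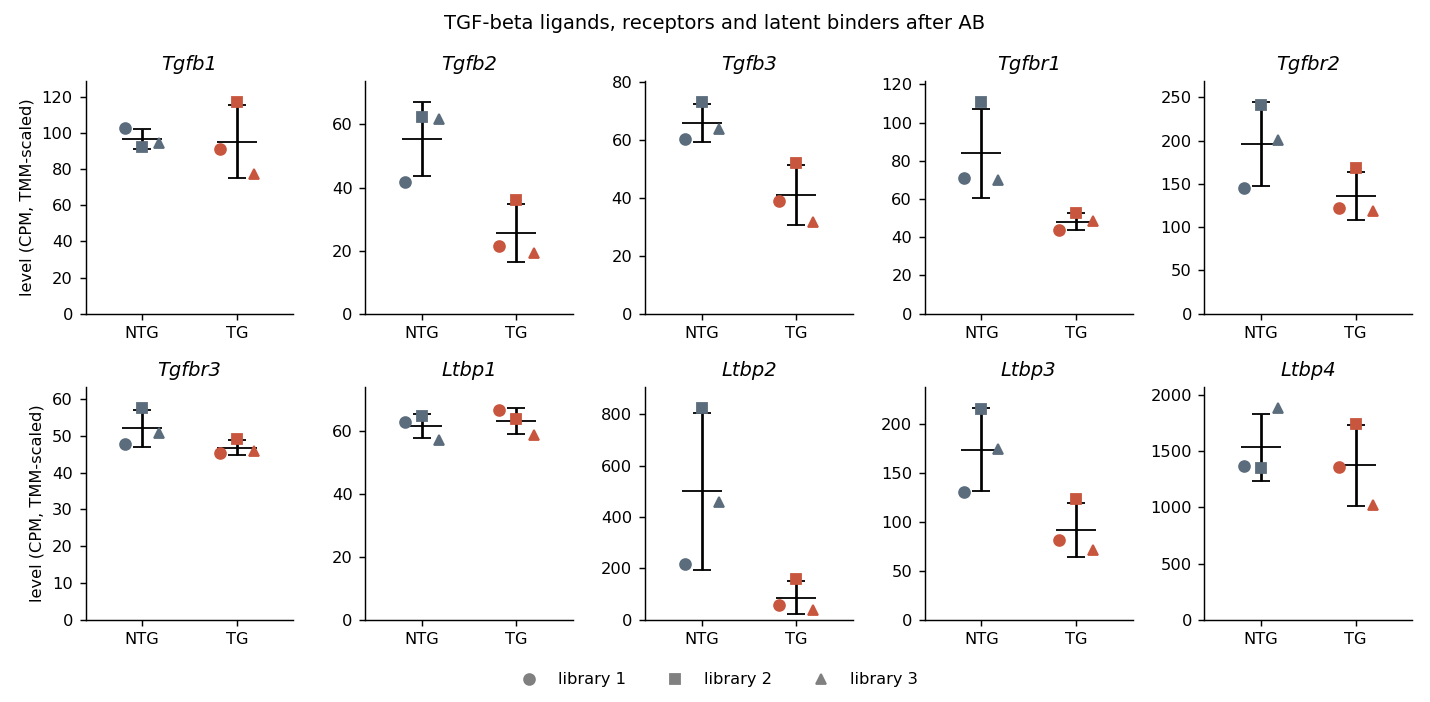
Level of each of the 10 genes in each library (y axis, CPM with TMM scaling, starting at 0) for NTG and TG (x axis). Symbols are single hearts, the long bar is the mean and the whiskers are 1 SD (n = 3). Tgfb2, Tgfb3, Tgfbr1, Ltbp2 and Ltbp3 have every TG point below every NTG point, while Tgfb1, Tgfbr2, Tgfbr3, Ltbp1 and Ltbp4 overlap.

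The start regions of Tgfb1 and Tgfb2 are shown because Tgfb1 was the ligand whose groups overlapped and Tgfb2 the ligand with the largest difference. The letters are the 250 bases before the start of the gene, taken from RefSeq (GRCm38.p6) and written 5′ to 3′ on the strand of the gene. Tgfb1 is read from chr7:25686752-25687001 on the plus strand and Tgfb2 from chr1:186705990-186706239 on the minus strand. Capitals mark matches, on either strand, to the letters of known binding motifs: the SMAD box CAGAC, the GC box GGGCGG, the TATA motif TATAAA and the E-box CACGTG.
Tgfb1: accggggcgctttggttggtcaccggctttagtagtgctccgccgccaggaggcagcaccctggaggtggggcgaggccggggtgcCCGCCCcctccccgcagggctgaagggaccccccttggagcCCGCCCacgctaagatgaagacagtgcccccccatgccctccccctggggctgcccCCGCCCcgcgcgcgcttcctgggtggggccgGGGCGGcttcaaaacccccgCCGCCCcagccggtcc
Tgfb2: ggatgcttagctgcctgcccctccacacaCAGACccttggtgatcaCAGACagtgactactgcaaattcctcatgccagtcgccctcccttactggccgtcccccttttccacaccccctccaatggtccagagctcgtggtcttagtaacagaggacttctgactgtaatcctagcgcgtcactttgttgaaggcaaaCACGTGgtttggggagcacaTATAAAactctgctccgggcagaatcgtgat
Tgfb1 held 5 GC boxes and no other match, and 75.2% of its bases were G or C. Tgfb2 held 2 SMAD boxes, 1 E-box and 1 TATA motif that lay 31 bases before the start, with 53.6% of its bases G or C and no GC box. Among 32851 RefSeq windows of 250 bases, 42.2% held a SMAD box, 32.7% a GC box, 12.4% the TATA motif and 6.02% the E-box. Of the Tgfb2 window, 167 bases lie in annotated exons of another gene. AP-1 (TGANTCA, in 6.75% of windows), CRE (TGACGTCA, 1.55%) and TEAD (GGAATG, 12.6%) letters were searched in the same way and had no match in either window. The matches describe the letters only, and binding was not measured. RefSeq windows were found for 8 of the 10 genes, all but Tgfb3 and Tgfbr3.

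Because 3 ligands are read in the same library, their shares do not depend on the scaling between libraries. Levels between genes were compared per length, as CPM per kb of the gene's counted length. Tgfb1 made up 44.9%, 36.2% and 38.7% of the summed ligand level in NTG and 54.4%, 51.7% and 54.7% in TG. Every TG share was above every NTG share, and the means were 39.9 ± 4.50% and 53.6 ± 1.64% (SD, n = 3). Tgfb2 took 19.7 ± 3.39% in NTG against 12.3 ± 1.43% in TG, and Tgfb3 took 40.3 ± 1.95% against 34.1 ± 0.586%. The Tgfb1 share was thus 13.7 percentage points higher in TG, or 16.15 without NTG 1, and the differences of the Tgfb2 and Tgfb3 shares without it were -9.38 and -6.77. In an exact two-sided permutation test each of these differences gave p = 0.1, the smallest value that 3 against 3 libraries allow, and p = 0.1 after adjustment over the 4 shares tested. The design could therefore not pass 0.05.

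**Figure D2:**
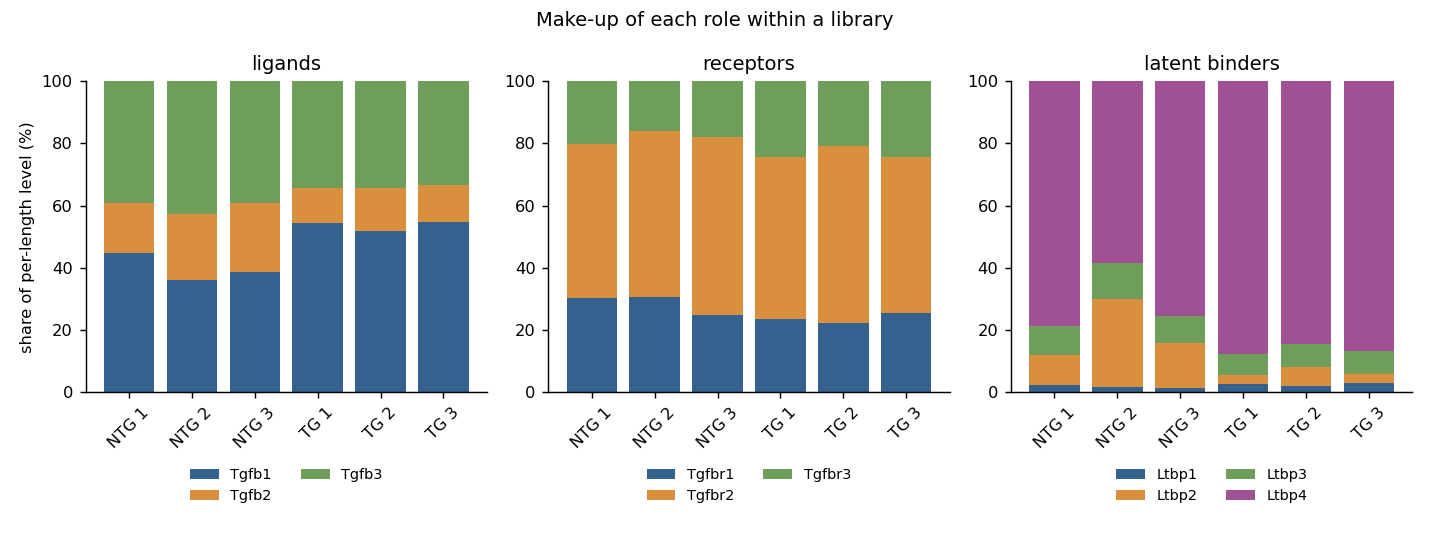
Stacked bars of the share of per-length level (y axis, percent) taken by each ligand, receptor and latent binder in each library (x axis). Tgfb1 makes up 51.7% to 54.7% of the ligand bars in TG and 36.2% to 44.9% in NTG, and Ltbp2 makes up 2.67% to 6.11% of the latent binder bars in TG and 9.87% to 28.2% in NTG.

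Of the receptors, Tgfbr1 (ENSMUSG00000007613, chromosome 4, 47353222 to 47414931, plus strand), the type I kinase that phosphorylates SMAD2 and SMAD3, had the smallest unadjusted p of the 10 genes. It stood at 71.0, 110.7 and 70.1 CPM in NTG and at 43.6, 52.5 and 48.5 CPM in TG. NTG 1 and NTG 3 were near each other, NTG 2 was the highest library, and all TG values were lower. The log2 fold change was -0.80 (SE 0.19), from 83.9 ± 23.2 to 48.2 ± 4.45 CPM (SD, n = 3), with an edgeR p of 0.0029 before adjustment and 0.196 after it and a DESeq2 adjusted p of 0.0092. Without NTG 1 the log2 fold change was -0.91 and the edgeR adjusted p 0.046, the single call among the 10 genes in that fit, which called 2.85% of all genes lower. Without NTG 2 the log2 fold change was -0.55 (edgeR adjusted p = 0.372), and without each of the other 4 libraries the adjusted p lay between 0.164 and 0.441.

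Tgfbr2 (ENSMUSG00000032440, chromosome 9, 116084293 to 116175360, minus strand), the type II kinase that binds the ligand first, was measured at 144.9, 241.5 and 201.0 CPM in NTG and at 122.0, 168.5 and 118.7 CPM in TG. TG 2 lay above NTG 1, so the groups overlapped. The log2 fold change of -0.52 (SE 0.21) had an edgeR p of 0.040 before adjustment and 0.25 after it, and DESeq2 did not call it either (adjusted p = 0.166). Without NTG 2 it was -0.34, with an edgeR p of 0.130 before adjustment, and that p was 0.093 without NTG 3, 0.117 without TG 1 and 0.116 without TG 3. The unadjusted edgeR p was 0.0037 without NTG 1 and 0.013 without TG 2. Without NTG 1 DESeq2 called Tgfbr2 (adjusted p = 0.0066), in a fit that called 11.7% of all genes in either direction. Tgfbr3 (ENSMUSG00000029287, chromosome 5, 107106570 to 107289629, minus strand), which encodes the co-receptor betaglycan, was at 47.7, 57.5 and 50.9 CPM in NTG and at 45.4, 49.1 and 45.9 CPM in TG. The TG values lay within a narrow range that reached above NTG 1, and the log2 fold change was -0.15 (SE 0.10, edgeR adjusted p = 0.416), or -0.08 without NTG 2. As shares of the summed receptor level per length, given as a description with no test, Tgfbr2 took 53.3% in NTG and 53.1% in TG on average, Tgfbr1 28.6% and 23.8%, and Tgfbr3 18.1% and 23.1%.

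Among the latent binders, Ltbp2 had the largest difference of the 10 genes. Its protein is a matrix component of elastic fibres and, unlike its relatives, is not known to bind latent TGF-beta. Ltbp2 (ENSMUSG00000002020, chromosome 12, 84783212 to 84876532, minus strand) stood at 218, 823 and 459 CPM in NTG and at 58.3, 159 and 39.6 CPM in TG. The groups did not overlap, but they spread widely: NTG 2 was far above NTG 1, and TG 2 was far above TG 3. Means were 500 ± 305 and 85.7 ± 64.3 CPM (SD, n = 3), and the log2 fold change was -2.54 (SE 0.67), the NTG level being 5.83 times that of TG. The edgeR p was 0.0075 before adjustment and 0.196 after it, and the DESeq2 adjusted p was 0.040. Without NTG 2 the log2 fold change was -1.98 and the unadjusted edgeR p 0.067, and without TG 2 they were -3.35 and 0.0026.

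The Ltbp2 start region is shown because of the size of that difference. It comes from chr12:84876533-84876741 on the minus strand (RefSeq, GRCm38.p6), ends where the annotated gene begins and is 209 bases long, with the same motifs in capitals.
Ltbp2: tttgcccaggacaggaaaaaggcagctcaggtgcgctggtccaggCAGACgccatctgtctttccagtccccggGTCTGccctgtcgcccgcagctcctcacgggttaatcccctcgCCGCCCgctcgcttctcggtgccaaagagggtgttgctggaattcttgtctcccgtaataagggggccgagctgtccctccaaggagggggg
These letters hold SMAD boxes on both strands and 1 GC box, with 63.2% of the bases G or C, and all 209 bases lie in annotated exons of the noncoding gene D030025P21Rik on the opposite strand. That gene had 1 to 10 counts per library, far fewer than Ltbp2, and its exons share 764 bases with those of Ltbp2. The whole Ltbp2 window held 2 GC boxes, 1 of them 9 bases before the RefSeq start and past the letters shown. Over the whole windows, SMAD boxes were also matched for Tgfbr2, Ltbp1 and Ltbp3 (1 each), GC boxes for Tgfbr1 (2) and Ltbp4 (3), and the CRE letters for Ltbp1 (1).

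Ltbp3 (ENSMUSG00000024940, chromosome 19, 5740904 to 5758532, plus strand), which binds all 3 latent ligands, was at 130.9, 215.6 and 174.5 CPM in NTG and at 81.6, 122.9 and 70.9 CPM in TG. Each TG value was below each NTG value, with TG 2 and NTG 1 nearest to one another. The log2 fold change was -0.92 (SE 0.25, edgeR adjusted p = 0.196, DESeq2 adjusted p = 0.013).

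Ltbp1 (ENSMUSG00000001870, chromosome 17, 75005568 to 75392512, plus strand), the first described latent binder, was at 62.8, 64.5 and 57.0 CPM in NTG and at 66.6, 63.8 and 58.6 CPM in TG. The ranges overlapped almost wholly, and the log2 fold change was 0.04 (SE 0.09, edgeR adjusted p = 0.858). It turned to -0.05 when libraries were scaled by their totals alone. Ltbp4 (ENSMUSG00000040488, chromosome 7, 27305136 to 27337692, minus strand), which is needed for elastic fibre assembly and binds latent TGF-beta 1, was at 1370, 1350 and 1881 CPM in NTG and at 1362, 1741 and 1018 CPM in TG. NTG 3 was its highest library and TG 3 its lowest, and the log2 fold change was -0.16 (SE 0.23, edgeR adjusted p = 0.728).

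Ltbp4 dominated the latent binders. Its share of their summed per-length level was 70.8% in NTG and 86.4% in TG on average, given without a test. Ltbp2 took 9.87%, 28.2% and 14.5% in NTG and 2.97%, 6.11% and 2.67% in TG, so the groups did not overlap. The difference of the Ltbp2 share was -13.6 percentage points, -17.4 without NTG 1 and -8.28 without NTG 2 (exact two-sided permutation p = 0.1 in each case, the smallest possible).

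Ordered by mean per-length level over the 6 libraries, Ltbp4 came first with 225 CPM per kb and a range of 157.5 to 291. Ltbp2 followed with 35.8 (4.84 to 101), Ltbp3 with 25.6 (13.7 to 41.5), Tgfbr2 with 20.3 (14.5 to 29.5), Tgfb1 with 19.0 (15.4 to 23.2) and Tgfb3 with 15.8 (9.40 to 21.6). Tgfbr1 was at 10.1 (6.68 to 17.0), Tgfbr3 at 7.55 (6.94 to 8.79), Tgfb2 at 6.98 (3.33 to 10.8) and Ltbp1 at 5.94 (5.44 to 6.35). Ltbp4 was above Ltbp2 in all 6 libraries with no overlap, and every other pair of neighbours in this order had overlapping ranges. Within libraries, Tgfb3 was nonetheless above Tgfbr1 in 6 of 6, while Ltbp2 was above Ltbp3 in 3 of 6 and Tgfbr2 above Tgfb1 in 2 of 6, in none of the TG libraries in either case. The order pools both groups: Ltbp2 averaged 61.1 CPM per kb in NTG and 10.5 in TG, where Ltbp3 (17.7), Tgfbr2 (16.7), Tgfb1 (18.9) and Tgfb3 (12.1) had higher means.

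Counted over the 10 genes, 0 were called by edgeR (adjusted p below 0.05 with a log2 difference beyond 0.5 either way), as were 0% of all genes. With an unadjusted p below 0.05, 6 were lower (Tgfb2, Tgfb3, Tgfbr1, Tgfbr2, Ltbp2 and Ltbp3) and 0 higher, against 9.76% of all genes lower and 8.83% higher. That count was 4 without NTG 2, 5 without NTG 3, TG 1 or TG 3, and 6 without NTG 1 or TG 2. The shares of all genes at that threshold, in either direction, were 10.4% without NTG 2, 12.2% without NTG 3 and 10.6% without TG 1. They were 11.4% without TG 3, 27% without NTG 1 and 19.3% without TG 2, beside 18.6% with 6 libraries. DESeq2 called 5 lower, against 2.40% of all genes. With 1 library left out, DESeq2 called 6 without NTG 1, where 11.7% of all genes were called in either direction, and 5 without TG 2 (5.17%). It called 1, Tgfbr1, without NTG 2 (0.82%) or NTG 3 (1.12%), and 0 without TG 1 (1.18%) or TG 3 (0.638%), beside 3.95% in the DESeq2 fit on 6 libraries. In 5 the TG libraries all lay below the NTG libraries, against 12.3% of all genes, and 9 had a lower fitted level in TG, against 51.3%. The median log2 fold change was -0.60 over the 10 genes and -0.01 over all genes tested. The 10 genes were chosen with earlier results of these data known, and these counts are a description of them.

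**Figure D3:**
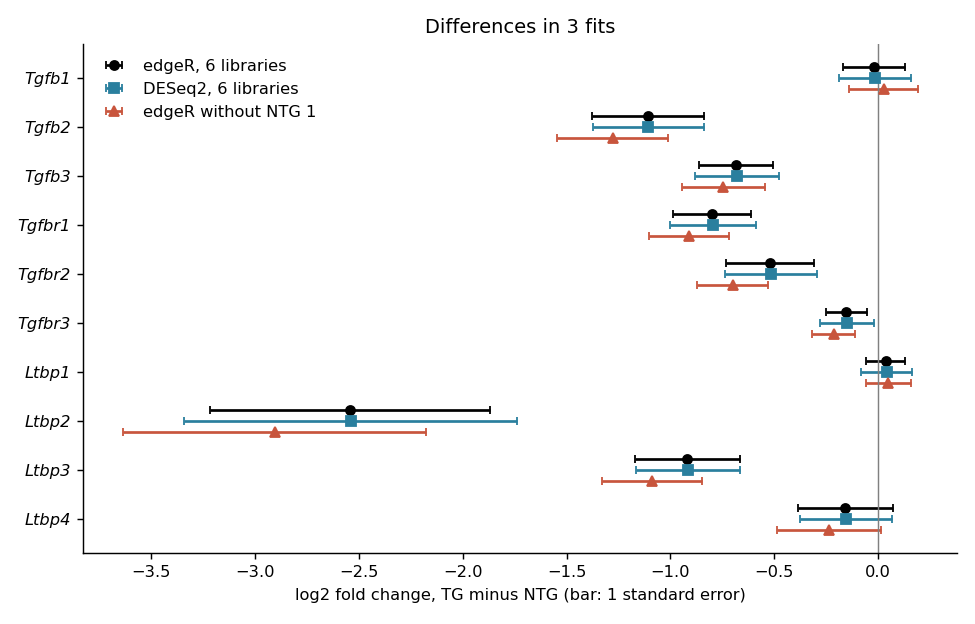
Log2 fold change of each of the 10 genes, TG minus NTG (x axis), from edgeR on 6 libraries, DESeq2 on 6 libraries and edgeR without NTG 1; bars are 1 standard error. Ltbp2 lies farthest from 0 at -2.54. Without NTG 1 the edgeR values of all 10 genes lie further from 0, and that of Tgfb1 changes sign from -0.02 to 0.03.

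Single libraries took the same places for most of the genes. NTG 2 was the highest of the 6 libraries for 7 genes and TG 3 the lowest for 7, TG 2 was the highest TG library for 9, and NTG 1 was the lowest NTG library for 6. Without NTG 1 the log2 fold changes were -1.28 for Tgfb2 (edgeR adjusted p = 0.053), -0.75 for Tgfb3 (0.071), -0.70 for Tgfbr2 (0.055), -2.91 for Ltbp2 (0.101) and -1.09 for Ltbp3 (0.055). In the same fit Tgfb1 was at 0.03, Tgfbr3 at -0.21, Ltbp1 at 0.05 and Ltbp4 at -0.24.

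Markers of other cells of the ventricle were read beside the 10 genes. In whole tissue, fewer cells of a type and less RNA per cell cannot be told apart. The summed level of 6 fibroblast markers was 1044 to 1465 CPM in NTG and 712.5 to 1089 in TG, ranges that overlapped. All 6 were lower on average, 2 of them at an unadjusted edgeR p under 0.05, against 9.76% of all genes. These 2 were Mfap5 at a log2 fold change of -1.59 and Pdgfra at -0.39. Col15a1 (-0.43), Lum (-0.29), Dpt (-0.20) and Tcf21 (-0.05) did not reach that threshold. The sum in TG was 0.681 times that in NTG. Of 6 macrophage markers, 3 were lower at the same threshold, against 9.76% of all genes. The 6 summed to 363.6 to 751.4 CPM in NTG and 313.2 to 406.9 in TG. The 3 neutrophil markers summed to 206 CPM in NTG 2 and to no more than 26.2 in any other library, and the 5 erythroid markers to 1310 to 2245 CPM in NTG and 762 to 907.5 in TG. All 3 neutrophil and all 5 erythroid markers were lower at that threshold. Sums of 6 endothelial markers (1481 to 1706 and 1582 to 1736 CPM) and of 5 smooth muscle and pericyte markers (1109 to 1449 and 1182 to 1453 CPM) overlapped between the groups. Single markers of these lists differed in direction. Of the smooth muscle and pericyte markers, Myh11 and Cnn1 were higher in every TG library, at log2 fold changes of 0.70 and 0.75 (edgeR adjusted p = 0.196 each, DESeq2 adjusted p = 0.017 and 0.045), while Rgs5 (0.04), Kcnj8 (-0.03) and Pdgfrb (-0.23) overlapped. Of the endothelial markers, Kdr (0.37), Egfl7 (0.30) and Tie1 (0.23) were higher in every TG library, Emcn (-0.19) was lower in every TG library, and Cdh5 (0.03) and Pecam1 (-0.11) overlapped, with no DESeq2 call. The 3 atrial cardiomyocyte markers summed to 67.5 CPM in NTG 1, 29.2 in TG 2 and 167 in TG 3 and to no more than 4.54 elsewhere. No marker of these lists was at 0 in all libraries. Their part in the differences of the ligands, receptors and binders was not tested.

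The genes that act around the 10 were grouped into lists by role and read from the fit on all genes. Of 14 tested genes that release or anchor latent TGF-beta, 6 were lower and 0 higher at an unadjusted p under 0.05, against 9.76% and 8.83% of all genes, DESeq2 called 3 lower, against 2.40%, and the median log2 fold change was -0.50. Itgb5, the beta chain of an integrin that frees TGF-beta from its propeptide, was at 254, 407 and 339 CPM in NTG and at 159, 229 and 164 in TG, a log2 fold change of -0.85 (SE 0.21). Its partner chain Itgav was at -0.58 (SE 0.17). Fn1, the fibronectin to which latent complexes are anchored, was at 405, 1227 and 510 CPM in NTG and at 199, 263 and 139 in TG, and its log2 fold change was -1.83 (SE 0.46). All of these had edgeR adjusted p-values of 0.196 to 0.203.

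Of 6 SMADs and SMAD anchors tested, 1 was lower at an unadjusted p under 0.05, where 9.76% of all genes were, and the median log2 fold change was 0.05. That gene was Smad3, a receptor-activated SMAD, at 32.6, 34.9 and 29.0 CPM in NTG and 18.5, 28.7 and 22.5 in TG, a log2 fold change of -0.47 (SE 0.16, edgeR adjusted p = 0.216). Smad2, the other receptor-activated SMAD of the pathway, was at 0.12 (SE 0.11), and Smad7, the inhibitory SMAD that TGF-beta induces, was at 0.21 (SE 0.15), and neither passed the test.

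Of 13 co-receptors and inhibitors tested, 5 were lower and 0 higher at an unadjusted p under 0.05, against 9.76% and 8.83% of all genes, and the median log2 fold change was -0.11. The 3 with the smallest p were Bgn and Dcn, the matrix proteoglycans biglycan and decorin that bind TGF-beta, and Fstl3, a secreted antagonist of activins. Bgn was at 1535, 3130 and 2270 CPM in NTG and at 732, 1250 and 655 in TG, with no overlap and a log2 fold change of -1.40 (SE 0.33). Those of Dcn and Fstl3 were -0.65 (SE 0.18) and -0.89 (SE 0.25), and all had an edgeR adjusted p of 0.196 and were called lower by DESeq2. These 3 were the only DESeq2 calls among the 13, against 2.40% of all genes called lower.

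Known TGF-beta target genes had the lowest median of the lists. Of 15 tested, 10 were lower and 1 higher at an unadjusted p under 0.05, against 9.76% and 8.83% of all genes, DESeq2 called 6 lower, against 2.40%, and the median log2 fold change was -1.18. Cilp, a matrix protein made by cardiac fibroblasts, was at 553, 977 and 818 CPM in NTG and at 150, 310 and 94.3 in TG, a log2 fold change of -2.08 (SE 0.45). Comp, another matrix protein, was at 171, 544 and 308 CPM in NTG and at 37.6, 100 and 28.8 in TG, with a log2 fold change of -2.62 (SE 0.61). Acta2, the smooth muscle actin that marks myofibroblasts and is also made by vascular smooth muscle, had a higher level in every TG library. It was at 88.5, 83.5 and 88.6 CPM in NTG and at 120, 114 and 115 in TG, a log2 fold change of 0.42 (SE 0.08) with no overlap between the groups. The part of smooth muscle, whose 5 markers differed in direction as given above, was not tested. Cilp, Comp and Acta2 had an edgeR adjusted p of 0.196 each.

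Without the library labelled NTG 1, a fit in which 13.3% of all genes were lower and 13.7% higher at an unadjusted p under 0.05, the counts were 9 lower and 1 higher of 14 activation and anchoring genes, 1 and 0 of 6 SMADs, 5 and 1 of 13 co-receptors and inhibitors, and 10 and 1 of 15 target genes. The medians were -0.72, 0.07, -0.16 and -1.39. In that fit edgeR called Itgb5 (-1.02) and Itgav (-0.71), Bgn (-1.62), the pseudoreceptor gene Bambi (0.63) and the collagen gene Col3a1 (-1.74), and these are all of the calls in the 4 lists. The fit called 5.52% of all genes in either direction and 2.85% lower. Of the fibroblast markers 2 of 6 were lower at an unadjusted p under 0.05 in it, and of the macrophage markers 4 of 6. The values of single genes and the marker sums given elsewhere keep NTG 1.

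**Figure D4:**
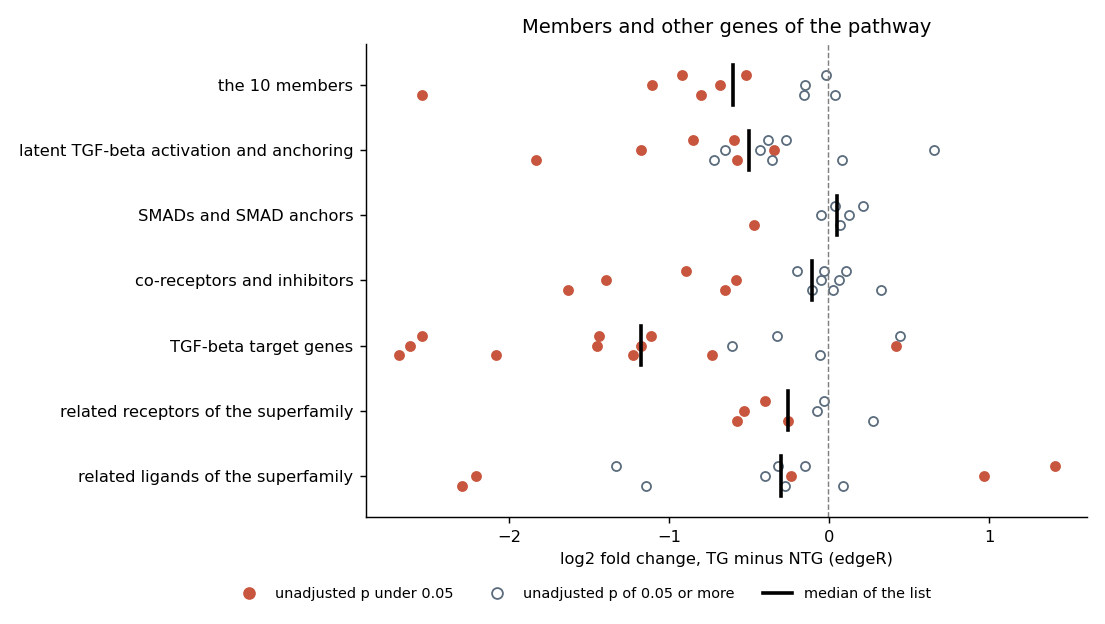
Log2 fold change, TG minus NTG (x axis), of the 10 genes and of the tested genes of 6 further lists (y axis). Filled points had an unadjusted edgeR p under 0.05, open points did not, and black bars are medians, which run from -1.18 for target genes to 0.05 for SMADs.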

How the data were processed

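Poly-A selected RNA from the left ventricles of 3 TG and 3 NTG mice after AB was sequenced. The deposited values are raw counts per gene, 1 column per heart, made by the authors with HISAT2, per the labels, and featureCounts, with StringTie for further transcripts. Their processing notes name a human build (GRCh38), whereas the identifiers and coordinates are those of mouse GRCm38. In GENCODE M21, 53585 genes had identical coordinates. The table also gives gene lengths, used for levels per kb, and FPKM made by the authors were not used here. Strand setting and handling of reads with several positions are not given in the sources used here. 0 columns of values were left unmatched.

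The analysis used edgeR 4.0.16 under R 4.3.3 (TMM, filterByExpr, robust quasi-likelihood test), with Benjamini-Hochberg adjustment over all 14774 genes that passed the filter. Calls required an adjusted p below 0.05 together with a log2 difference beyond 0.5 either way. DESeq2 1.42.0, the tool the authors used, and limma 3.58.1 (voom) were alternatives, as were other scalings and filters, a likelihood-ratio test, a replicate block and leaving out each library. List counts without NTG 1 were added after seeing the data, as were the genes named from that fit. The biological coefficient of variation common to all genes came to 18.7%. The code of the fits was checked on data simulated with a common dispersion for all genes, and no result here rests on that check. Shares were compared by exact permutation tests. The p-values measure the spread between hearts. The 10 genes and all lists were chosen with earlier results of these data known. Named genes were the 10, the 3 of each list with the smallest unadjusted p, and the 5 whose centred log2 CPM (prior count of 2) were nearest to those of the gene with the smallest p, by root mean square difference over 6 libraries. All markers of the fibroblast, endothelial, and smooth muscle and pericyte lists were also named, a choice made after their values were seen.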

Additional observations from a re-analysis of the deposited data

How the results depend on the processing

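The counts of calls depended on the test. Genes called numbered 0 with edgeR's quasi-likelihood test, which gave 2747 genes at an unadjusted p under 0.05, and 0 with scaling by upper quartile, RLE or library size, a minimum mean of 10 counts, no robust estimate or limma-voom. They numbered 232 with no filter, 583 by DESeq2 and 545 by edgeR's likelihood-ratio test, and, leaving out each library, 0 to 836 in edgeR (836 without NTG 1, 7 without TG 2, 1 without TG 3) and 96 to 1773 in DESeq2 (1773 without NTG 1, 123 without NTG 2, 169 without NTG 3, 179 without TG 1, 778 without TG 2, 96 without TG 3). Of the 10 genes, the likelihood-ratio test and DESeq2 called 5 each, edgeR 0 to 1 leaving out each library, and DESeq2 0 to 6 (6 without NTG 1, 5 without TG 2, 1 without NTG 2 or NTG 3). The cause was not tested. Without TG 2, 8 genes did not overlap between groups, against 41.4% of all genes in either direction. Without NTG 1 it was 7 against 47% and without any other single library 5 against 28.5% to 31.8%, beside 5 against 23.5% with 6 libraries.

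TG and NTG share replicate numbers, but the sample titles state no pairing. Deviations of same-numbered libraries from their group means correlated at 0.0807, 0.173 and -0.252, and not every library correlated best with its own number. With 3 libraries a group, these values cannot decide whether the numbers pair the hearts. With the replicate number as a block, edgeR called 231 genes, 3 of them among the 10 (Tgfb3, Tgfbr1 and Ltbp3).

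Tgfb2, Tgfb3, Tgfbr1, Tgfbr2, Ltbp2 and Ltbp3 were lower in TG under all 22 alternatives. The sign of the log2 fold change turned for Tgfb1 (0.026, 0.0086 and 0.1079 without NTG 1, TG 1 or TG 3, and 0.0334, 0.0132 and 0.1139 in DESeq2, with -0.196 as the lowest, without TG 2), Ltbp1 (-0.0495 with library-size scaling, -0.017 and -0.0085 without NTG 3 or TG 1, -0.0095 and -0.0034 in DESeq2, with 0.0842 in edgeR and 0.0906 in DESeq2 without TG 3) and Ltbp4 (0.0133 and 0.0154 without NTG 3 or TG 3, 0.0206 and 0.0212 in DESeq2, lowest -0.3659 without TG 2). Library-size scaling moved the median of all genes to -0.09. With 3 hearts a group, a fold change of a variable gene such as Ltbp2 is known only roughly.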

Other observations

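Other receptors and ligands of the TGF-beta superfamily were read from the same fit. Of 10 related receptors, 7 were tested, with a median log2 fold change of -0.26. At an unadjusted p under 0.05, 4 were lower and 0 higher, against 9.76% and 8.83% of all genes. Without NTG 1 the counts were 3 and 0, against 13.3% and 13.7%. Bmpr2, a type II receptor for bone morphogenetic proteins, was at 183, 239 and 204 CPM in NTG and at 163, 161 and 151 in TG, a log2 fold change of -0.40 (SE 0.12, edgeR adjusted p = 0.197). Those of the type I receptors Acvr1 and Acvr1b were -0.57 (SE 0.18) and -0.53 (SE 0.20). DESeq2 called none of the 7.

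Of 14 related ligands, 12 were tested, with a median of -0.30. At an unadjusted p under 0.05, 3 were lower and 2 higher, against 9.76% and 8.83% of all genes. Without NTG 1 these were 4 and 2, against 13.3% and 13.7%. Inhbb, which encodes the activin B subunit, was at 42.5, 131 and 89.6 CPM in NTG and at 14.2, 28.4 and 10.9 in TG. No values overlapped, and the log2 fold change was -2.29 (SE 0.50, edgeR adjusted p = 0.196, DESeq2 adjusted p = 0.0092). Gdf6 was at -2.21 (SE 0.69), with TG 2 above NTG 1. Bmp7 was at 1.41 (SE 0.45) but below 2 CPM in every library. Over all 67 tested genes of the lists outside the 10, 29 were lower and 3 higher at that threshold, against 9.76% and 8.83% of all genes, and DESeq2 called 13 lower, against 2.40%. Without NTG 1, 32 were lower and 5 higher, against 13.3% and 13.7%.

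The genes whose pattern over the 6 libraries lay nearest to Tgfbr1, NTG 1 included, by the root mean square difference of centred log2 CPM, were Gcnt1 (0.0715), F730043M19Rik (0.0753), Hif1a (0.0798), Spcs3 (0.0926) and Tmed3 (0.0932). Hif1a, an oxygen-regulated transcription factor, averaged 158 CPM in NTG and 88.3 CPM in TG.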
